A study of Homo sapiens with 24 samples.

Results

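The 7SK and 7SL RNAs are encoded by 4 main genes, RN7SK, RN7SL1, RN7SL2 and RN7SL3, and by a large number of gene copies scattered over the human genome. Of the 57773 genes in the expression table, 1161 carried a 7SK or 7SL name, 299 of them 7SK and 862 7SL. The 86 described here are those with at least 1 TPM in at least 2 of the 24 libraries, where TPM is a gene's reads divided by its length and expressed as a share of the library. They are the 4 main genes, 24 copies of 7SK and 58 copies of 7SL. The members were therefore chosen on their levels in these same libraries, and the levels below are given as a description. Just inside the threshold, RN7SL127P, RN7SL390P, RN7SL812P and RN7SL38P had a second-highest TPM between 1.02 and 1.04, and just outside it RN7SL80P, RN7SL577P, RN7SL512P and RN7SL559P had one between 0.971 and 0.981. Of the 1075 entries that were left out, 314 were listed at 0 in all libraries.

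The assay was TGIRT-seq, in which a heat-stable bacterial intron-encoded reverse transcriptase reads structured RNAs together with messenger RNAs in fragmented RNA cleared of ribosomal RNA. The cells were SKOV3.ip1, an established human ovarian carcinoma line, 72 h after transfection with 100 nM siRNA or after mock transfection with Lipofectamine alone. The siRNA groups were RBFOX2 siRNA_1 and siRNA_2 (set against the n4/n5 mock set), hnRNPC siRNA_2 and siRNA_3 (against the oct mock set), hnRNPM siRNA_1 and siRNA_3 (against the oct and jan mock sets) and SRSF1 siRNA_1 and siRNA_3 (against the nov and jan mock sets). Each of the 8 siRNA groups and 4 mock sets held 2 libraries, which the series calls biological replicates of this single line. The p-values rest on the spread between these libraries, moderated in the fit by the trend of spread with level over all genes. All libraries are bulk RNA, in which fewer cells with an RNA and less of it per cell cannot be told apart.

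7SK is a nuclear RNA made by RNA polymerase III. It holds the kinase P-TEFb inactive through HEXIM1 or HEXIM2, and the proteins LARP7 and MEPCE protect its ends. 7SL, also a polymerase III product, is the scaffold of the signal recognition particle, which binds signal peptides on ribosomes and takes them to the endoplasmic reticulum. Both RNAs have been copied back into the genome many times, and Alu elements descend from 7SL. RBFOX2, hnRNPC, hnRNPM and SRSF1 are nuclear RNA-binding proteins that regulate splicing. hnRNPC binds uridine tracts in newly made transcripts, and other hnRNP proteins are known to bind 7SK.

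The sequences of RN7SK and of the 7SK copies on which the results turn show how much of the main gene a copy keeps. All are from the GENCODE v29 transcripts (GRCh38), 5′ to 3′, in lower case, and limited to the first 300 bases. Capitals mark the bases of a copy that differ from RN7SK in a pairwise alignment, and gaps are not shown. They are RN7SK, at chr6:52995620-52995950 on the plus strand, then RN7SKP71 and RN7SKP203, which rose after hnRNPC depletion, and RN7SKP80, which fell.
RN7SK: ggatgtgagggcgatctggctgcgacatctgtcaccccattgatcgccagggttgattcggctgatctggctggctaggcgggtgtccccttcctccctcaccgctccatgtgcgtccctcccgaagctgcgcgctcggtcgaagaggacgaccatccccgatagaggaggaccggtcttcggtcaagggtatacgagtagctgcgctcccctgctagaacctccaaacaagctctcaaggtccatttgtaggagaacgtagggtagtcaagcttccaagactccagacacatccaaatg
RN7SKP71: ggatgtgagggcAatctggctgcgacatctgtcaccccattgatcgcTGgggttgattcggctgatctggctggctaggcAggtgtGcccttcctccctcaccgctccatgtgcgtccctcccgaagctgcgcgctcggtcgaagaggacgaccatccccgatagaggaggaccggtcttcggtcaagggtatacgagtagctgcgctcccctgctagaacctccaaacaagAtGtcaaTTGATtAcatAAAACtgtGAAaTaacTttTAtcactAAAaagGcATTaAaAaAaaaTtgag
RN7SKP203: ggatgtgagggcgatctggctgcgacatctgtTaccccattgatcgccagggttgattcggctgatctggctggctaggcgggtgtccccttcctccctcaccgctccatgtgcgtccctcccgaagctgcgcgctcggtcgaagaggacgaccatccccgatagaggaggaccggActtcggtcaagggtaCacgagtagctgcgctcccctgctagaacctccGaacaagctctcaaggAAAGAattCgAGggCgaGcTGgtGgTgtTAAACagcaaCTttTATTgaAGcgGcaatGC
RN7SKP80: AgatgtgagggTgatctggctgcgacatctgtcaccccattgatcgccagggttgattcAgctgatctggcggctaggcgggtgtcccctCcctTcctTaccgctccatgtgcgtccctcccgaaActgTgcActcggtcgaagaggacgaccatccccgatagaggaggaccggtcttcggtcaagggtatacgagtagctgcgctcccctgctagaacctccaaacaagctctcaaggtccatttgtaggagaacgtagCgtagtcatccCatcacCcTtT

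RN7SL1, at chr14:49586580-49586878 on the plus strand, and RN7SL2 differed at 4 of 299 aligned bases and shared an unbroken run of 205, and RN7SL1 and RN7SL3 differed at 7. Copies differ in which end of the main gene they keep: 8 of the 13 that rose after hnRNPC depletion, 2 of the 3 that fell and 30 of the 61 matched copies that were not called were closer to it in its first 200 bases than beyond. The 8 include RN7SKP193 and RN7SL665P, which met the level threshold in hnRNPC siRNA libraries alone. RN7SKP71 was 97.5% identical to RN7SK over its first 200 bases and 72.1% beyond them, and RN7SKP203 was 98.5% and 76.3% identical. RN7SL5P was 99.5% identical to RN7SL1 over the first 200 bases, with an unbroken shared run of 209, and 78.7% identical beyond. RN7SL767P was 96.5% and 61.8% identical. RN7SL712P, which also rose, was 86.0% and 89.9% identical. RN7SKP80 is shorter, at 283 bases against 331 in RN7SK, and was 95.5% identical in the first 200 and 94.0% over the 84 bases aligned beyond. How reads that fit a main gene and a copy equally well were counted is not given in the sources used here, so the split of reads among main genes and copies is uncertain.

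The 4 targeted genes were lower after their own siRNAs, by limma on log2(scaled TPM + 1) with Benjamini-Hochberg adjustment over 16994 genes. RBFOX2 fell by 1.61, HNRNPC by 1.77, HNRNPM by 1.83 and SRSF1 by 2.16 on this log2 scale, with adjusted p between 8.54e-09 and 6.22e-07. The 7 markers of epithelial and ovarian carcinoma lines measured, among them KRT8, EPCAM and PAX8, summed to between 564 and 1163 TPM in siRNA libraries. In mock libraries they summed to between 425 and 891 TPM. ERBB2 was the highest of them, at 252 to 819 TPM, and CDH1 the lowest, at 1.61 to 4.45 TPM. The 9 measured markers of leukocytes, endothelium and fibroblasts were each under 1 TPM in every library. Libraries were scaled to each other by median ratios, with factors between 0.664 and 1.41; the sequencing depth of each is unknown.

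The main genes were among the most abundant RNAs of the table, and no change in them passed the test. RN7SL2, RN7SL1 and RN7SK held ranks 1, 2 and 3 of all genes by mean TPM, and RN7SL3 held rank 19. Together the 7SK and 7SL genes took between 21.1% and 31.7% of a library's TPM, with a median of 25.9%. RN7SK made up 97.1% to 98.6% of the 7SK total, and RN7SL1, RN7SL2 and RN7SL3 together 91.9% to 99.2% of the 7SL total. Since TPM is a share of the library, the values below are scaled TPM, the TPM divided by the library's scaling factor.

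RN7SK, the P-TEFb scaffold, averaged 48296 ± 555 scaled TPM with hnRNPC siRNA_2 and 72969 ± 4411 with hnRNPC siRNA_3, against 59317 ± 8366 in the oct mock set (SD, n = 2 each). The hnRNPC siRNA libraries lay on both sides of the mock libraries, with siRNA_2 below and siRNA_3 above. With hnRNPM siRNA_1 the mean was 57032 ± 1703, within the spread of the same mock set. RBFOX2 siRNA_1 and siRNA_2 gave 64491 ± 2940.0 and 62308 ± 4773, against 69922 ± 2374 in the n4/n5 mock set. SRSF1 siRNA_1 gave 50006 ± 389, against 59212 ± 20974 in the nov mock set, whose libraries at 74043 and 44381 enclosed both siRNA libraries. The lowest scaled levels stood together in the January set, with 38715 ± 6749 for hnRNPM siRNA_3, 38121 ± 7367 for SRSF1 siRNA_3 and 34546 ± 5282 for the jan mock set. These 3 neighbours did not differ beyond their spread. The libraries of this set had scaling factors of 1.19 to 1.41, so their low place depends on the scaling. Before scaling, RN7SK had 43579 and 50361 TPM in the jan mock set and 46959 and 44701 TPM with hnRNPC siRNA_2.

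RN7SL1 and RN7SL2, which encode the same particle RNA, had a ratio of RN7SL2 to RN7SL1 between 0.814 and 1.41. The ratio does not depend on the scaling. It was 1.09 to 1.41 in the libraries of the January set and 0.814 to 1.11 in the others. RN7SL1 averaged 100512 ± 3575 and 105022 ± 7185 scaled TPM with hnRNPC siRNA_2 and siRNA_3, against 100508 ± 481 in the oct mock set. Its lowest mean was again in the jan mock set, at 58974 ± 6725, and its highest in the n4/n5 mock set, at 129447 ± 2107. RN7SL3 was far lower, with a median of 4339.8 scaled TPM over the libraries and 1 outlying value of 18069 in a library of the n4/n5 mock set, whose other library had 3685. The ratio of summed 7SL to summed 7SK TPM ran between 2.98 and 4.56.

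**Figure D1:**
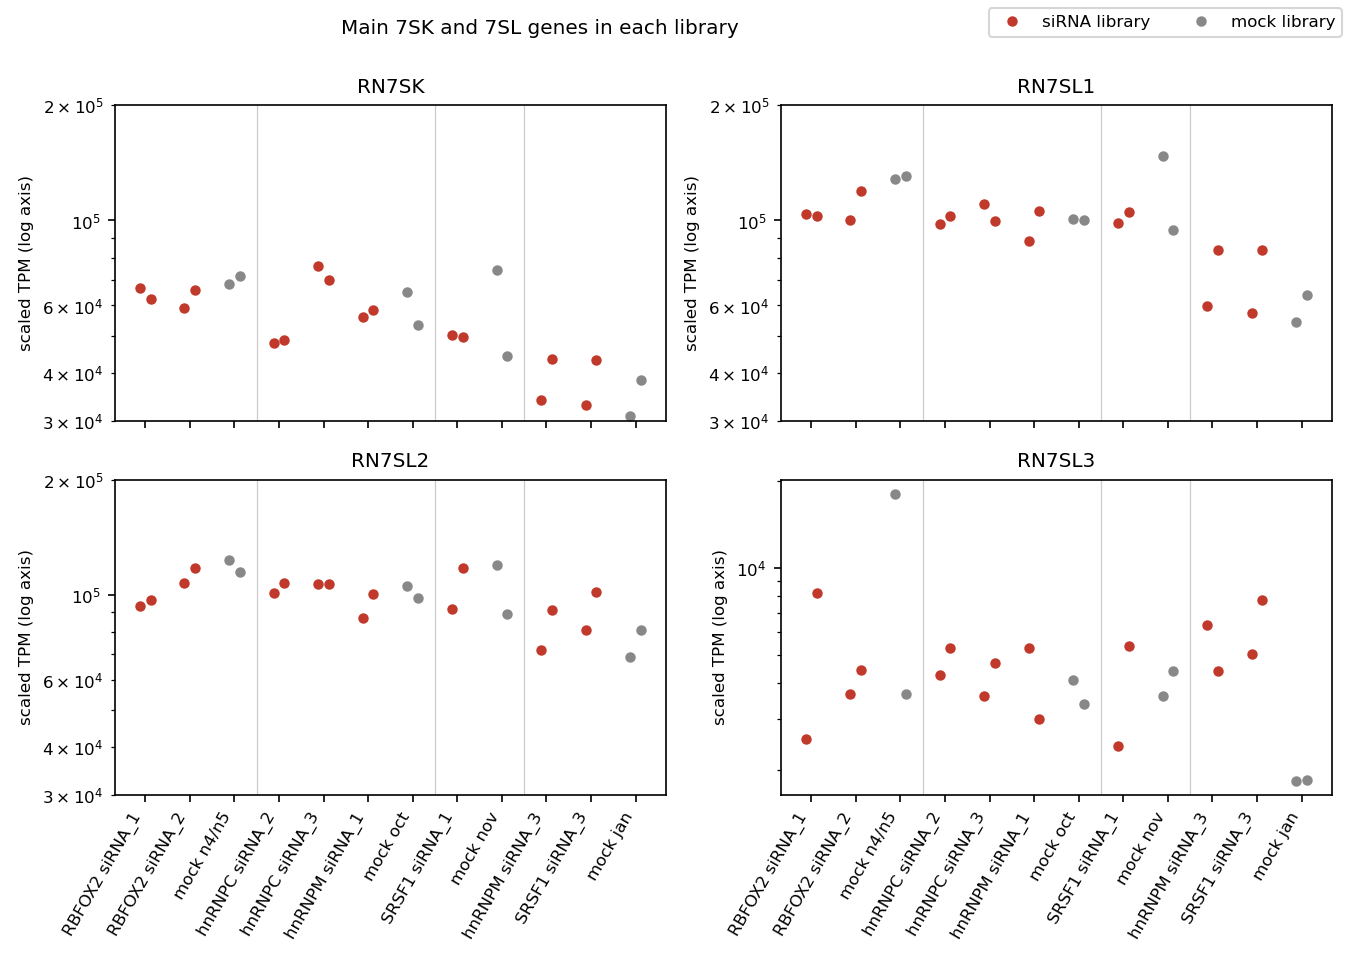
Scaled TPM of RN7SK, RN7SL1, RN7SL2 and RN7SL3 (log axes; the axis of RN7SL3 covers lower values) in each library, 2 points a group, siRNA libraries in red and mock libraries in grey; grey lines part the transfection sets. On scaled TPM, the January set (hnRNPM siRNA_3, SRSF1 siRNA_3, mock jan) holds the lowest 3 group means for RN7SK, RN7SL1 and RN7SL2. Its libraries had scaling factors of 1.19 to 1.41. Before scaling this held for none of these genes. RN7SK had 46959 and 44701 TPM with hnRNPC siRNA_2 and 42572 and 57890 TPM with hnRNPM siRNA_3. RN7SL1 had 92346 and 81026 TPM with hnRNPC siRNA_3 and 74814 and 111599 TPM with hnRNPM siRNA_3. RN7SL2 had 106179 and 120958 TPM with SRSF1 siRNA_3 and 79684 and 93405 TPM in the nov mock set.

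None of the main genes changed by the test in any of the 4 comparisons, and the intervals are wide. After hnRNPC depletion the log2 change of RN7SK was 0.01 ± 0.51 (SE; 95% interval -1.09 to 1.10), that of RN7SL1 0.03 ± 0.66 (-1.38 to 1.44), that of RN7SL2 0.05 ± 0.66 (-1.36 to 1.46) and that of RN7SL3 0.25 ± 0.55 (-0.93 to 1.43). The widest departures from 0 among main genes were those of RN7SL3, at -0.92 ± 0.55 after RBFOX2, 0.81 ± 0.45 after hnRNPM and 0.81 ± 0.45 after SRSF1 depletion. Their adjusted p-values by limma were 0.549, 0.568 and 0.309. Without the outlying mock library the first was 0.22. The fit moderates each gene's spread by the trend over all genes, so these intervals do not rest on its own libraries alone. RN7SL2 had 101287 to 107149 scaled TPM in the hnRNPC siRNA libraries and 98113 and 105385 in the oct mock set. RN7SL1 had 97984 to 110103 and, in the mock set, 100848 and 100168. Both ranges are narrower than the intervals of these genes. This test called no change in the main genes.

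The copies took a small part of each family. In TPM, the 7SK copies summed to between 1.38% and 2.92% of all 7SK, and the 7SL copies to between 0.791% and 8.05% of all 7SL. These sums run over every copy of the family name, also those left out by the threshold. The highest value of both ranges was in an hnRNPC siRNA library. The 7SK copies were 2.92% and 2.56% of their family with hnRNPC siRNA_2 and 2.79% and 2.40% with hnRNPC siRNA_3, against 1.45% and 1.71% in the oct mock set. The 7SL copies were 6.77% and 3.996% with hnRNPC siRNA_2 and 8.05% and 5.42% with hnRNPC siRNA_3, against 1.15% and 2.55% in the oct mock set. The groups did not overlap in either family. With hnRNPM siRNA_1, set against the same mock libraries, the 7SK copies were 2.08% and 1.91% of their family, also above both. In the n4/n5 set the 7SK share was 2.25% and 2.26% with RBFOX2 siRNA_1, 2.57% and 2.21% with RBFOX2 siRNA_2 and 2.36% and 2.102% in the mock set, so that a library of RBFOX2 siRNA_2 lay above 2 of the 4 hnRNPC siRNA libraries. In the other 3 comparisons siRNA and mock libraries overlapped in the share of 7SL copies. The 1075 entries left out by the threshold, which are part of these sums, held 56.5 to 73.0 TPM in the hnRNPC siRNA libraries. In the oct mock set they held 51.0 to 54.7 TPM.

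**Figure D2:**
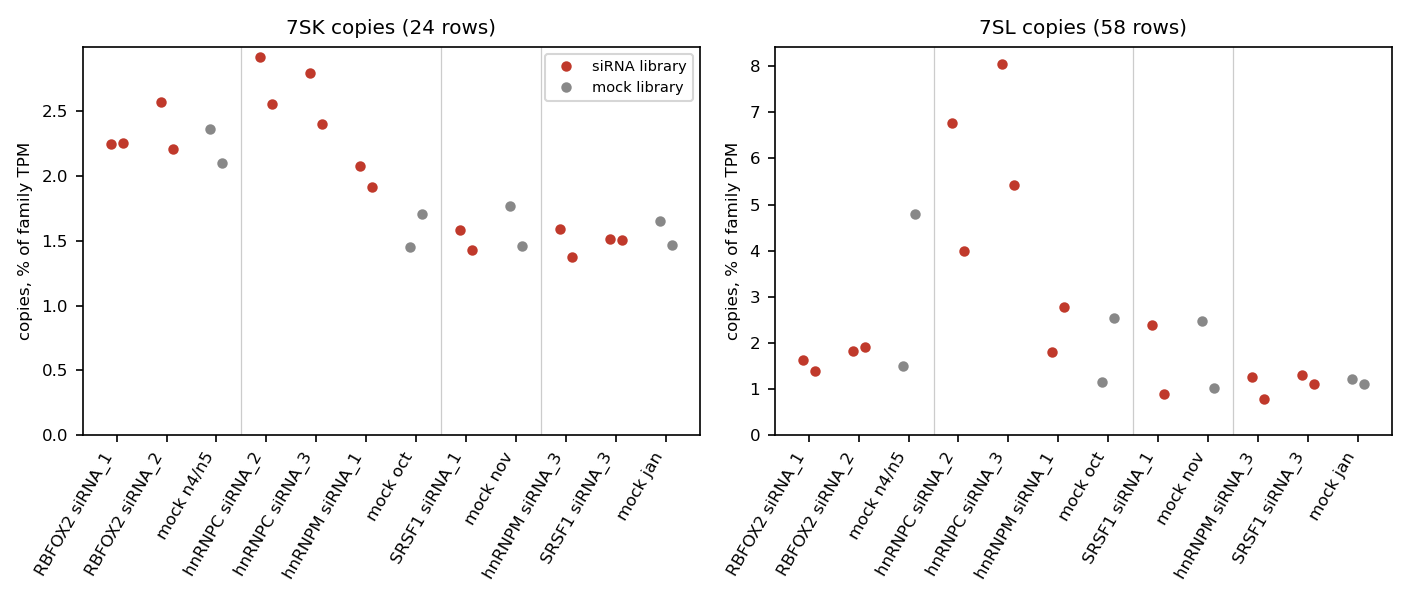
Summed TPM of the 7SK copies (left) and of the 7SL copies (right) as a percentage of the TPM of all genes of that family name. There are 2 points a group, siRNA libraries in red and mock libraries in grey, and grey lines part the transfection sets. The sums include copies left out by the threshold, while the panel titles give the 24 and 58 that met it. The 4 hnRNPC siRNA libraries lie between 2.40% and 2.92% for 7SK and 3.996% and 8.05% for 7SL, above both oct mock libraries; a library of RBFOX2 siRNA_2 reaches 2.57% for 7SK, and a library of the n4/n5 mock set 4.80% for 7SL.

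A few copies held most of this. RN7SL4P, RN7SL5P, RN7SL128P, RN7SKP255 and RN7SL674P had the highest mean levels of the 82 copies, with medians over the libraries of 957 (range 320.1 to 12892), 496 (range 252 to 4932), 686 (range 305 to 2088), 488 (range 251 to 1099) and 372 (range 123 to 785) scaled TPM. RN7SL4P alone was between 18.6% and 75.0% of the summed 7SL copies of a library. Most copies were rare: 21 of the 82 reached 1 TPM in every library and 32 of the 86 entries did so in only 2 to 5 libraries.

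RN7SL4P, at chr3:15738515-15738809 on the plus strand, inside ANKRD28 on the opposite strand, was the most variable of them. It had 8497 and 2739.6 scaled TPM with hnRNPC siRNA_2, 12892 and 6474 with hnRNPC siRNA_3 and 834 and 2538 in the oct mock set. In the n4/n5 mock set it had 848 and 9439, and in the nov mock set 3184 and 615. Mock libraries of the same set differed from each other widely, and the hnRNPC siRNA libraries lay above the oct mock libraries by a narrow margin. Its log2 change of 2.19 ± 0.91 after hnRNPC depletion did not pass the test (adjusted p = 0.180, limma). RN7SL128P, inside E2F3 on the opposite strand, had 408 and 476 scaled TPM with hnRNPC siRNA_2, 668 and 414 with hnRNPC siRNA_3 and 389 and 1679.6 in the oct mock set, again with mock libraries far apart.

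More copies were called after hnRNPC depletion than in the other 3 comparisons together, and most of them rose. A call here needs an adjusted p under 0.05 by limma and siRNAs that moved the gene the same way. By this rule 13 copies rose and 3 fell of the 86 entries, where 2.11% of all 16994 genes tested rose and 4.34% fell. The risen ones were 6 copies of 7SK and 7 of 7SL, and the fallen ones were all 7SK copies. The median log2 change of all 86 was 0.14, against -0.01 for all genes. The level threshold let 4 entries in through hnRNPC siRNA libraries alone, and 2 of the 13 risen copies, RN7SKP193 and RN7SL665P, were among them. Of the 25 entries with at least 1 TPM in every library, 5 rose and 3 fell.

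Among the 7SK copies, RN7SKP71 had the largest log2 change. It lies at chr12:112267077-112267394 on the plus strand, inside HECTD4 but on the opposite strand. It had 576 and 589.7 scaled TPM with hnRNPC siRNA_2, 936 and 798 with hnRNPC siRNA_3 and 57.6 and 41.0 in the oct mock set, so that the lowest hnRNPC siRNA library lay well above the highest mock library. Its log2 change was 3.84 ± 0.22 (adjusted p = 1.53e-07, limma). With the other siRNAs and in the other mock sets it had 19.1 to 92.8 scaled TPM.

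RN7SKP203, at chr2:76445079-76445410 on the minus strand with no gene annotated over it, had 159 and 109.6 scaled TPM with hnRNPC siRNA_2, 188 and 144 with hnRNPC siRNA_3 and 29.6 and 22.1 in the oct mock set. The groups did not overlap, and the log2 change was 2.48 ± 0.36 (adjusted p = 0.00105, limma). RN7SKP230, opposite to MAN2A1 on chromosome 5, had 35.5 and 29.2 scaled TPM with hnRNPC siRNA_2, 47.9 and 53.8 with hnRNPC siRNA_3 and 11.7 and 8.35 in the oct mock set, again without overlap, and a log2 change of 1.93 ± 0.35 (adjusted p = 0.00449); without the oct mock library of replicate 3 its adjusted p was 0.0733. RN7SKP292, which lies in TBC1D14 on the same strand, was near the threshold, with 3.60 and 2.88 scaled TPM with hnRNPC siRNA_2, 4.21 and 6.77 with hnRNPC siRNA_3 and 0.921 and 1.00 in the oct mock set. All 4 siRNA libraries were higher, and its log2 change was 1.40 ± 0.23 (adjusted p = 0.00219).

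Among the 7SL copies, RN7SL5P, at chr9:9442060-9442380 on the plus strand, inside PTPRD on the opposite strand, reached the highest level of any copy that rose. It had 4857 and 4932 scaled TPM with hnRNPC siRNA_2, 4602 and 4204 with hnRNPC siRNA_3 and 697 and 470.4 in the oct mock set. The siRNA libraries were close to each other and far above the mock libraries, with a log2 change of 3.02 ± 0.31 (adjusted p = 5.91e-05, limma). In no other siRNA or mock library did it exceed 1427 scaled TPM, which 1 library of RBFOX2 siRNA_2 reached beside 586 in its replicate. RN7SL1, with which RN7SL5P shares its first 200 bases but for 1, did not pass the test, and its interval, given above, was wide. The difference between these genes was not tested.

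RN7SL767P, at chr3:113632704-113632998 on the plus strand with no gene annotated over it, had 365 and 303 scaled TPM with hnRNPC siRNA_2, 419 and 353 with hnRNPC siRNA_3 and 52.5 and 70.9 in the oct mock set, without overlap. Its log2 change was 2.53 ± 0.46 (adjusted p = 0.00474, limma), and without the oct mock library of replicate 1 the adjusted p was 0.0516. A library of the nov mock set reached 146 scaled TPM. RN7SL712P on the X chromosome and RN7SL507P on chromosome 17, neither within another gene, were far less abundant. RN7SL712P had 6.32 and 6.75 scaled TPM with hnRNPC siRNA_2, 4.52 and 5.26 with hnRNPC siRNA_3 and 0.840 and 0.554 in the oct mock set, and its log2 change was 1.98 ± 0.20 (adjusted p = 5.91e-05). RN7SL507P had 4.15 and 4.36 scaled TPM with hnRNPC siRNA_2, 4.55 and 4.80 with hnRNPC siRNA_3 and 0.542 and 0.710 in the oct mock set, with a log2 change of 1.75 ± 0.25 (adjusted p = 0.000912). In both the siRNA libraries stood apart from the mock libraries.

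The other 5 risen copies had log2 changes between 0.79 and 1.38 and levels of at most 6.86 scaled TPM. They are RN7SL665P, RN7SL732P and RN7SL546P, named here after their values were seen, and RN7SKP193 and RN7SKP90. RN7SL546P lost its call when any of 4 of the 6 libraries was left out (adjusted p up to 0.226) and RN7SL732P when any of 3 was (up to 0.290). RN7SKP90 lost it without the oct mock library of replicate 3 (adjusted p = 0.105).

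The fallen copies were RN7SKP80, RN7SKP185 and the gene named 7SK (ENSG00000260682, RN7SKP176 in GENCODE v29). RN7SKP80, at chr22:42565048-42565330 on the minus strand, in RRP7BP on the same strand and SERHL2 on the opposite strand, had 19.3 and 18.2 scaled TPM with hnRNPC siRNA_2, 39.4 and 34.0 with hnRNPC siRNA_3 and 140.4 and 129 in the oct mock set. Every siRNA library was below every mock library, and the log2 change was -2.32 ± 0.25 (adjusted p = 8.97e-05, limma). RN7SKP185, on chromosome 20 with no gene over it, had 2.13 and 1.73 scaled TPM with hnRNPC siRNA_2, 6.51 and 4.68 with hnRNPC siRNA_3 and 13.0 and 15.7 in the oct mock set, without overlap and lower with siRNA_2 than with siRNA_3. Its log2 change was -1.81 ± 0.47 (adjusted p = 0.0310). The gene named 7SK, over an exon of PLCG2 on the same strand, had 5.20 and 5.15 scaled TPM with hnRNPC siRNA_2, 8.67 and 8.26 with hnRNPC siRNA_3 and 13.5 and 12.5 in the oct mock set, also without overlap, and a log2 change of -0.87 ± 0.25 (adjusted p = 0.0487). These last calls were fragile. Without single libraries, the adjusted p of RN7SKP185 was 0.0451 to 0.180 and over 0.05 in 5 of 6 fits, and that of the gene named 7SK was 0.0740 to 0.197 in all 6.

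**Figure D3:**
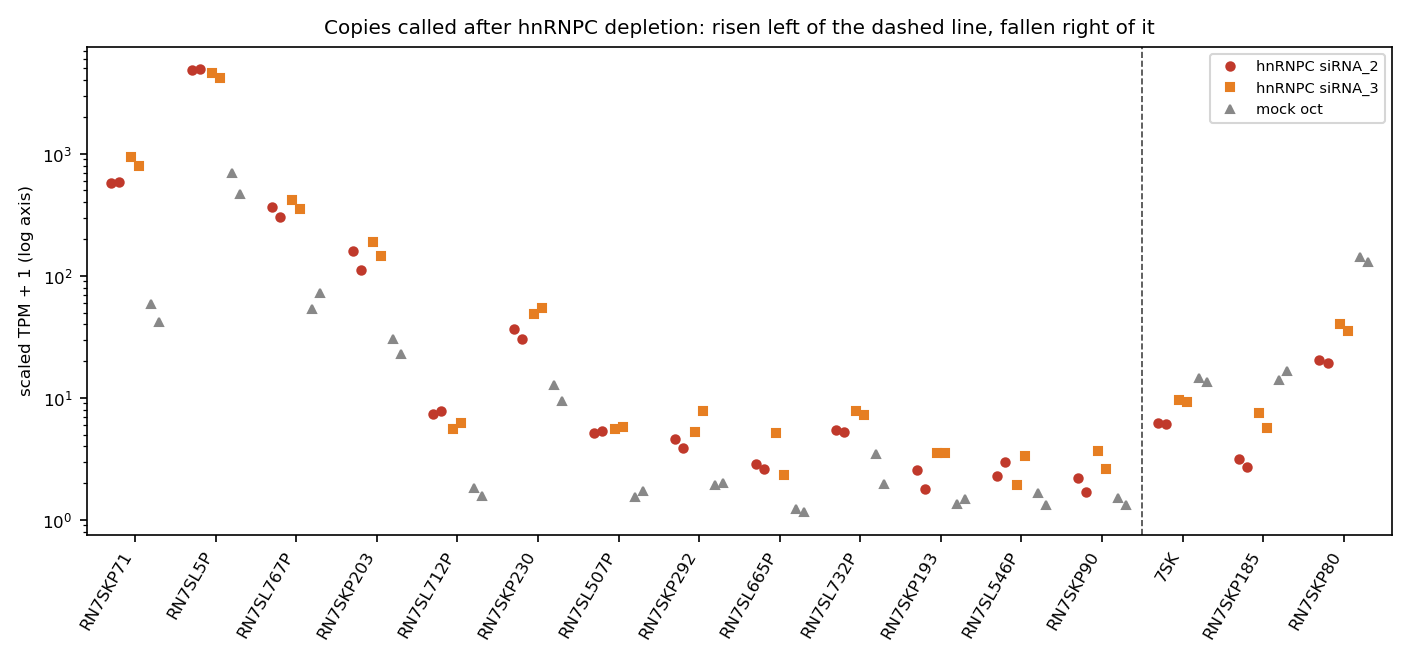
Scaled TPM plus 1 (log axis) of the 16 copies called after hnRNPC depletion, 2 libraries a group: hnRNPC siRNA_2 (circles), hnRNPC siRNA_3 (squares) and the oct mock set (triangles), ordered by log2 change, with the 3 fallen copies right of the dashed line. In each copy the siRNA and mock points do not overlap; the values reach 4932 scaled TPM.

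On scaled TPM, all 4 hnRNPC siRNA libraries lay above both oct mock libraries for 24 of the 86 entries and below them for 7. Of all genes tested, 8.28% lay above and 11.4% below. The 24 include RN7SKP193 and RN7SL665P, which met the level threshold in hnRNPC siRNA libraries alone. Besides the called copies, 9 of the 86 had an unadjusted p under 0.05 and did not pass the adjustment. Among them were RN7SL4P, as above, and RN7SL192P, at 0.73 ± 0.21 (adjusted p = 0.0541, and 0.0403 with replicate number as a block). The 70 entries that were not called had log2 changes between -0.75 and 2.19 with a median of 0.07.

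Taken singly, hnRNPC siRNA_2 raised 12 and lowered 3 of the 86 entries at an adjusted p under 0.05 by limma. Of all genes, 5.23% were raised and 8.03% lowered. With hnRNPC siRNA_3, 12 rose and 1 fell, where 0.9% and 1.82% of all genes did so. The 86 include the 4 entries that met the level threshold in hnRNPC siRNA libraries alone, RN7SKP193 among them. The difference between the siRNAs passed the test for 2 of the 86, RN7SKP193 and RN7SKP90, where 11.1% of all genes did; with replicate number as a block 4 passed, these 2 included, and without siRNA_2 replicate 3 or siRNA_3 replicate 1 there were 0. RN7SKP193, opposite to LINC01588 on chromosome 14, had 1.54 and 0.776 scaled TPM with hnRNPC siRNA_2, 2.499 and 2.56 with hnRNPC siRNA_3 and 0.347 and 0.494 in the oct mock set. RN7SKP90, opposite to PLEKHA7 on chromosome 11, had 1.21 and 0.704 scaled TPM with hnRNPC siRNA_2, 2.65 and 1.61 with hnRNPC siRNA_3 and 0.515 and 0.316 in the oct mock set. Both were higher with siRNA_3 than with siRNA_2, with a siRNA_2 minus siRNA_3 difference of -0.73 ± 0.17 (adjusted p = 0.0130) and -0.67 ± 0.19 (adjusted p = 0.0307) on the log2 scale.

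RBFOX2 depletion moved no entry past the threshold, by limma with adjustment: 0 rose and 0 fell of 86, where 0.0235% and 0.0883% of all genes did so, and 5 had an unadjusted p under 0.05. The median log2 change was -0.09, and 59 of the 86 were below 0. All siRNA libraries lay above all mock libraries for 5 entries and below them for 17, where 10.6% and 9.91% of all genes did so. The lowest value was that of RN7SL4P, -1.68 ± 0.91 (adjusted p = 0.488), and without the mock library at 9439 scaled TPM it was 0.05. The RBFOX2 siRNA libraries and their mock set all had more RN7SKP255 than any other library, with 1061 and 1019 scaled TPM for RBFOX2 siRNA_1, 1099 and 949 for siRNA_2 and 1080.1 and 927 for the n4/n5 mock set. RN7SKP71 and RN7SL5P, which rose after hnRNPC depletion, had log2 changes of 0.04 ± 0.22 and 0.17 ± 0.31 after RBFOX2 depletion.

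After hnRNPM depletion 1 entry rose and 0 fell, where 0.359% and 0.677% of all genes did so; 5 of the 86 had an unadjusted p under 0.05. The risen copy was RN7SL192P, which lies in SMARCA4 on the same strand. It had 1.63 and 3.48 scaled TPM with hnRNPM siRNA_1 and 1.94 and 2.61 with hnRNPM siRNA_3, against 1.34 and 0.865 in the oct and 1.23 and 0.385 in the jan mock set. It is 1 of 3 entries whose siRNA libraries all lay above the mock libraries, with 0 below, where 1.82% and 2.54% of all genes did so. The log2 change was 0.80 ± 0.17 (adjusted p = 0.0369, limma). The call was lost when any of 6 of the 8 libraries was left out, with adjusted p up to 0.193.

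After SRSF1 depletion 0 entries rose and 2 fell, where 4.36% and 5.01% of all genes did so; 6 of the 86 had an unadjusted p under 0.05. RN7SKP173, in ACTR5 on the same strand, had 0.645 and 0.574 scaled TPM with SRSF1 siRNA_1 and 0.644 and 0.482 with SRSF1 siRNA_3, against 1.96 and 1.65 in the nov and 2.23 and 2.43 in the jan mock set. All siRNA libraries were below all mock libraries, as for 1 entry in all, with 1 above, where 7% and 6.71% of all genes did so. The log2 change of -0.95 ± 0.12 (adjusted p = 0.000159, limma) kept its call whichever library was left out. RN7SKP30, in CLOCK on the same strand, had 0.0435 and 0.605 with SRSF1 siRNA_1 and 0.420 and 0.136 with siRNA_3, against 0.462 and 0.710 in the nov and 1.13 and 1.16 in the jan mock set. Its groups overlapped, and the log2 change was -0.52 ± 0.15 (adjusted p = 0.0361; over 0.05 when any of 6 of the 8 libraries was left out).

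**Figure D4:**
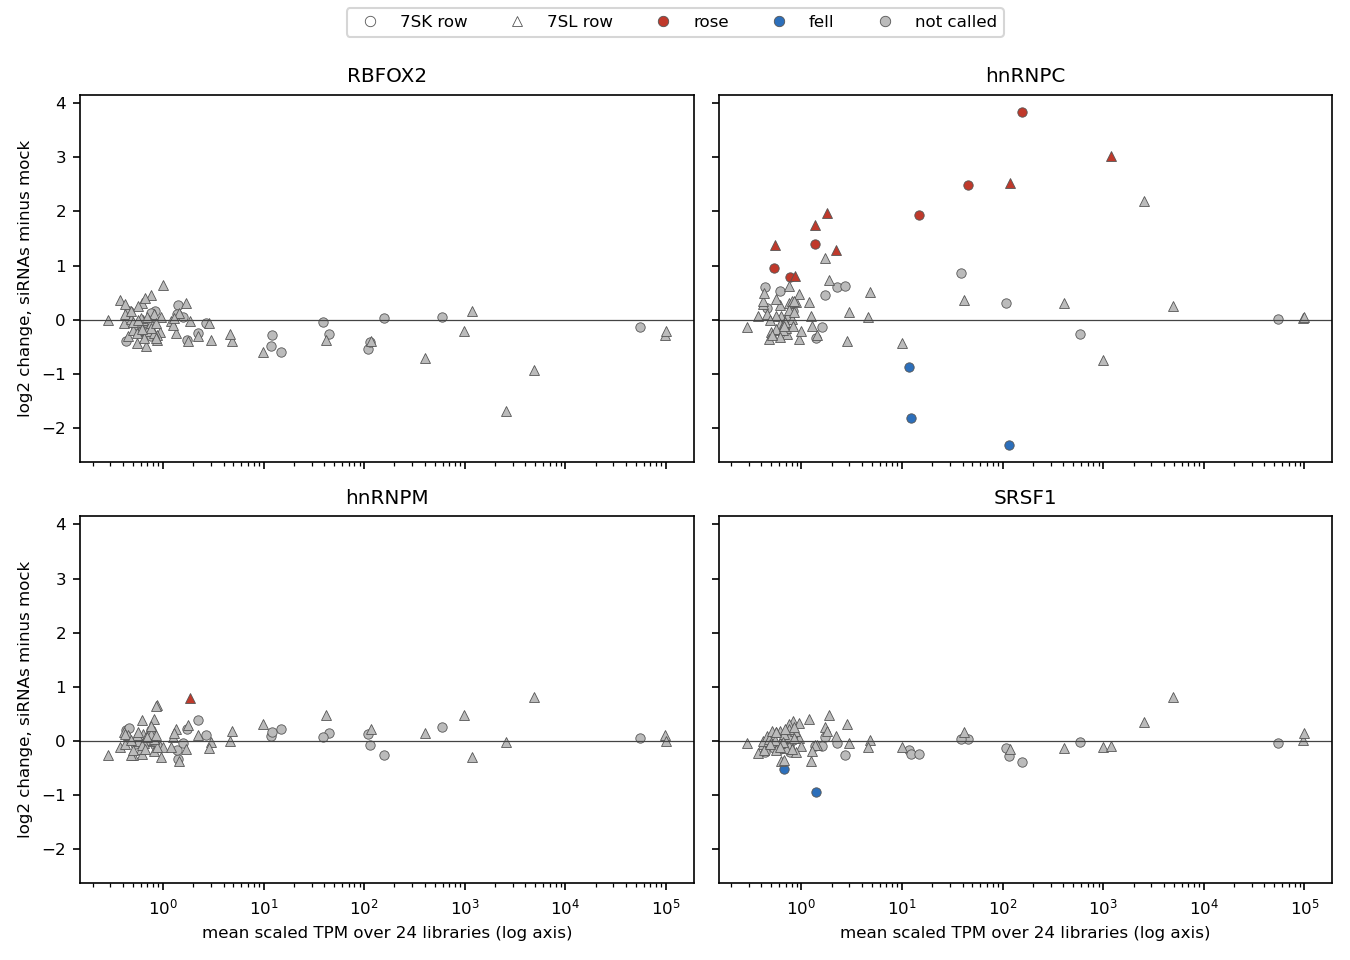
Log2 change (mean of both siRNAs minus mock) of the 86 entries against their mean scaled TPM over 24 libraries (log axis), for each depleted protein; circles are 7SK, triangles 7SL, red entries rose, blue fell and grey were not called. After hnRNPC depletion 13 points are red and 3 blue, reaching 3.84 and -2.32, while the other panels hold 0, 1 and 2 coloured points.

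The changes after hnRNPC depletion were tested against those after each other protein in the same model. The hnRNPC change was higher than the RBFOX2 change for 9 entries and lower for 1, where 0.653% and 0.9% of all genes were. It was higher than the hnRNPM change for 14 and lower for 3, where 2.89% and 4.87% of all genes were, and hnRNPM siRNA_1 shares the oct mock set. It was higher than the SRSF1 change for 11 and lower for 1, where 2.38% and 3.78% were. These counts include RN7SKP193 and RN7SL665P, which met the level threshold in hnRNPC siRNA libraries alone; without the 4 entries of that kind, 7, 12 and 9 were higher than after RBFOX2, hnRNPM and SRSF1 depletion, and 1, 3 and 1 were lower. RN7SKP71 differed by 3.80 ± 0.31 (adjusted p = 1.18e-05) in log2 change against RBFOX2, 4.10 ± 0.22 (adjusted p = 1.07e-07) against hnRNPM and 4.22 ± 0.28 (adjusted p = 2.32e-06) against SRSF1. For RN7SL5P the differences were 2.85 ± 0.44 (adjusted p = 0.00527), 3.30 ± 0.31 (adjusted p = 2.34e-05) and 3.10 ± 0.40 (adjusted p = 0.000372) in the same order. Of the 13 risen copies, RN7SL546P was the one that differed from none of the other proteins, and its log2 change after hnRNPM depletion was 0.66 ± 0.17 (adjusted p = 0.0810). Without a library of the oct mock set, 4 or 5 entries differed from RBFOX2 in place of 10.

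The position of a copy was not used to choose it, but its level was. The copies below include the 4 that met the level threshold in hnRNPC siRNA libraries alone. Of these, RN7SKP193 lies opposite to a gene and RN7SL665P on the same strand as one, and both rose. RN7SKP47 lies opposite to a gene and RN7SL564P clear of any gene. Neither was called, and they are named only because they met the threshold in this way. Counts and medians without them are not given. Of the 82 copies, 77 matched GENCODE v29, and of these 43 lie on the same strand as a gene that overlaps them, 16 only opposite to a gene and 18 clear of any gene. The 13 that rose after hnRNPC depletion were 2, 5 and 6 of these, the 3 that fell were 2, 0 and 1, and the 61 matched copies that were not called were 39, 11 and 11. The median log2 change after hnRNPC depletion was 0.07 for copies on the same strand as a gene, 0.37 for those opposite to one and 0.56 for those clear of genes. The same medians were -0.04, -0.08 and -0.28 after RBFOX2, 0.01, 0.04 and 0.20 after hnRNPM, and -0.02, -0.12 and -0.04 after SRSF1 depletion. These are counts and medians only, and copies on the same strand as a gene may hold reads of that gene, since the counting is not stated. Many copies on the same strand as a gene averaged under 1 scaled TPM, where the log2 scale used here understates changes. The part of level in these medians was not tested.

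Called copies were found in every class of likeness to the main gene, with a larger share called in the closer classes. Of the 14 copies with at least 95% identity to the main gene over its first 200 bases, 4 rose and 2 fell; of the 6 with 90% to 95% identity 2 rose; and of the 57 with less, 7 rose and 1 fell. The median log2 change was 0.49, 0.50 and 0.14 in the same order. These classes include the 4 copies that met the level threshold in hnRNPC siRNA libraries alone. Among these, RN7SKP193 and RN7SL665P are counted with the 7 risen of the last class. Counts without them are not given. The copies in the first class were also the more abundant, with a median mean level of 80.1 scaled TPM, against 0.761 in the last class. The overall identity of the risen copies to their main gene was 83.7% to 92.9% (median 87.3%), that of the fallen 88.8% to 95.1% and that of the uncalled 73.7% to 92.8% (median 83.5%). RN7SKP255, with 98.5% identity over the first 200 bases, was at -0.27 ± 0.27 after hnRNPC depletion (adjusted p = 0.621), so that copies equally close to RN7SK in sequence had different values.

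**Figure D5:**
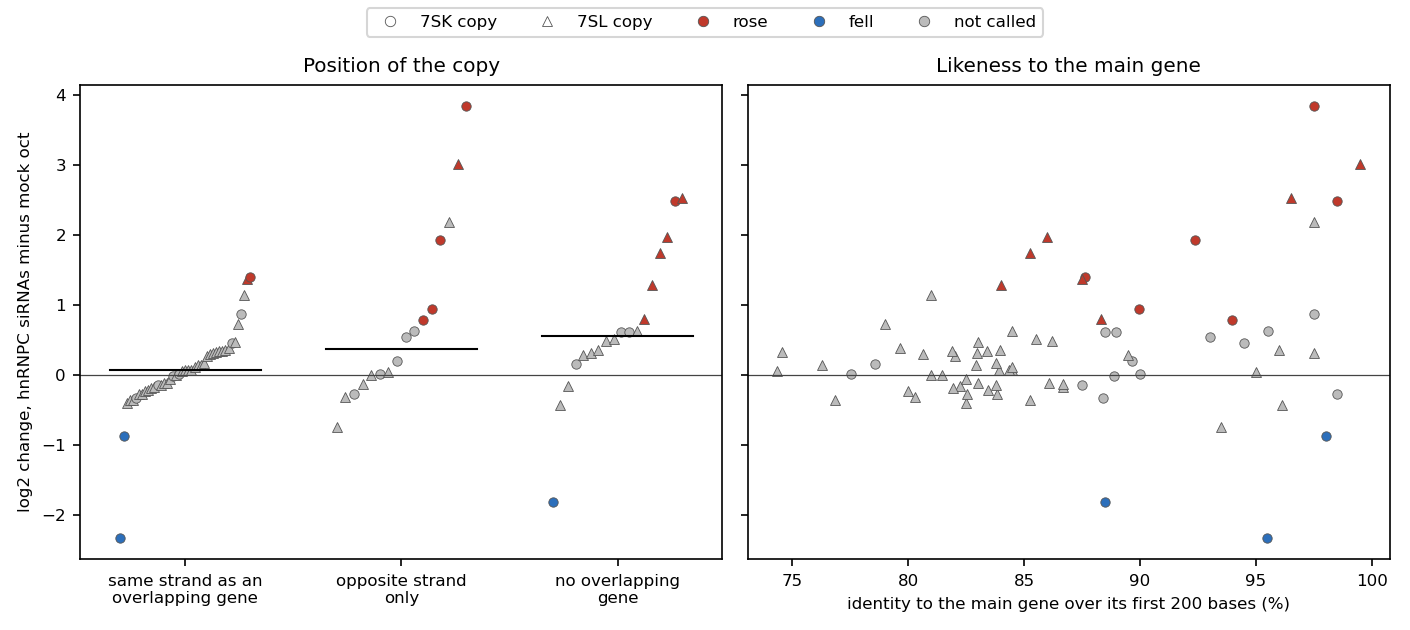
Log2 change after hnRNPC depletion of the 77 copies matched to the annotation, by position (left; black bars are medians of 0.07, 0.37 and 0.56) and by identity to the main gene over its first 200 bases in percent (right); circles are 7SK, triangles 7SL, red copies rose, blue fell, grey were not called. The risen copies stand mostly opposite to or clear of genes and are found at identities across the range from 84.0% to 99.5%. The copies that met the level threshold in hnRNPC siRNA libraries alone are included.

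Of the genes that overlap called copies, 1 fell and 1 rose of the 8 given here, where 4.34% of all genes fell and 2.11% rose after hnRNPC depletion. After hnRNPC depletion HECTD4, opposite to RN7SKP71, changed by -0.06 ± 0.11 (adjusted p = 0.813) in log2 scaled TPM, and PTPRD, opposite to RN7SL5P, by -0.36 ± 0.13 (adjusted p = 0.125). SERHL2, opposite to RN7SKP80, was at 0.09 ± 0.10 (adjusted p = 0.703). MAN2A1, opposite to RN7SKP230, fell, at -0.31 ± 0.07 (adjusted p = 0.0223), while PLEKHA7, opposite to RN7SKP90, rose, at 0.50 ± 0.11 (adjusted p = 0.0135). Among genes on the same strand, TBC1D14 around RN7SKP292 was at 0.02 ± 0.10 (adjusted p = 0.925), RRP7B (RRP7BP in GENCODE v29) around RN7SKP80 at 0.11 ± 0.10 (adjusted p = 0.583) and PLCG2 around the gene named 7SK at -0.23 ± 0.15 (adjusted p = 0.409). These genes were named for the copies they overlap, not for their values.

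The genes for proteins that bind these RNAs are read against the share of all genes called. After RBFOX2, hnRNPC, hnRNPM and SRSF1 depletion 0.0235%, 2.11%, 0.359% and 4.36% of all genes rose and 0.0883%, 4.34%, 0.677% and 5.01% fell. Of 6 proteins known to bind 7SK outside its core particle, 0 were called in any comparison, with 0, 2, 0 and 1 at an unadjusted p under 0.05 after RBFOX2, hnRNPC, hnRNPM and SRSF1 depletion. Of the 8 tested genes of the signal recognition particle and its receptor, SRP72, a subunit that binds 7SL, fell after hnRNPC depletion, at -0.31 ± 0.07 (adjusted p = 0.0121), and 0 others were called in any comparison; the list's median log2 changes were between -0.11 and -0.02 in the 4 comparisons. Of the 6 genes of the Sec61 translocon, 0 were called in any comparison, with 1, 0, 1 and 2 at an unadjusted p under 0.05.

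Genes of the machinery that transcribes these RNAs were called after SRSF1 depletion, where 4.36% of all genes rose and 5.01% fell, and after hnRNPC depletion, where 2.11% rose and 4.34% fell. Of the 12 tested genes for subunits of RNA polymerase III, 3 fell after SRSF1 depletion: POLR3C at -0.31 ± 0.08 (adjusted p = 0.0289), POLR1D at -0.25 ± 0.05 (adjusted p = 0.00311) and POLR3B at -0.15 ± 0.05 (adjusted p = 0.0461). POLR3C also fell after hnRNPC depletion, at -0.44 ± 0.10 (adjusted p = 0.0188), the comparison in which copies rose. Of the 19 initiation factor genes, MAF1, a repressor of the polymerase, SNAPC3 and ZNF143, which act at the promoter type used by 7SK, rose after SRSF1 depletion, at 0.29 ± 0.08 (adjusted p = 0.0255), 0.25 ± 0.07 (adjusted p = 0.0246) and 0.25 ± 0.06 (adjusted p = 0.0161). GTF3A, the factor that binds 5S genes, fell, at -0.21 ± 0.06 (adjusted p = 0.0475). In the other 3 comparisons 0 of the 19 were called, with 3, 3 and 1 at an unadjusted p under 0.05 after RBFOX2, hnRNPC and hnRNPM depletion.

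The 11 other polymerase III transcripts examined, among them RMRP, RPPH1, the Y RNAs and the vault RNAs, had 0 calls in any comparison, with 1, 0, 1 and 0 at an unadjusted p under 0.05. Their median log2 change was 0.38 after hnRNPC depletion, with 9 of 11 above 0, and -0.58 after RBFOX2 depletion, with 10 of 11 below 0; the corresponding medians of all genes were -0.01 and 0.00. It was 0.09 after hnRNPM and -0.10 after SRSF1 depletion. The part of this shift in the values of the copies was not tested; the log2 changes of 3.84 for RN7SKP71 and -2.32 for RN7SKP80 lie outside the range of these 11 transcripts after hnRNPC depletion, -0.12 to 0.64.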

How the data were processed

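The expression values were deposited as TPM, a unit scaled to 1000000 in each of the 24 libraries over 57773 genes by the authors, so depth is unknown and no counting interval can be given. Per the labels' protocols, SKOV3.ip1 cells received 100 nM siRNA or mock transfection, and RNA was taken after 72 h, ribodepleted, fragmented and copied with TGIRT. The submitters' processing notes name the build hg19 and the tools SAMtools 0.1.19.0, Bowtie2 2.1.0.0, TopHat2 2.0.9, Trimmomatic 0.38 and FastQC 0.10.1. The counting tool, annotation, use of strand and treatment of reads that match several genes are not given in the sources used here. The name of the deposited table includes the word coco, which may stand for CoCo, a correction that reassigns reads among nested and repeated genes, but no label states its use; if it was used, the values of copies depend on that reassignment.

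Each library was divided by a median-ratio factor, taken over 22727 genes that no library lists at 0, and analysed as log2(scaled TPM + 1), which understates changes of rare genes. A filter of 1 TPM in 2 or more libraries left 16994 genes, fitted in limma 3.58.1 (R 4.3.3) with 12 groups and a mean-variance trend (residual df 12, prior df 3.04). The contrast per protein, the mean over both siRNAs of siRNA minus own mock set, was tested with Benjamini-Hochberg adjustment over all genes; calls are defined in the text. The model was run on simulated data drawn from its own fitted levels and spreads, without pairing of replicates. Such data cannot show where the assumptions of the model fail. Pairs of identical libraries numbered 0.

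Members, gene lists and the rule for naming genes were chosen with earlier results of these data known. The text names the main genes, up to 8 risen and 8 fallen copies per protein, the 5 most abundant copies, copies that differ between siRNAs, those at the threshold, the targeted genes and up to 4 called genes per list; others are marked. Positions and sequences came from GENCODE v29 (GRCh38; 73 entries matched by identifier, 8 by symbol, 5 unmatched), aligned with Biopython 1.88; the deposited table gives no coordinates. Some sequences and a list of genes are not reported here. A gene was called overlapping if its span covers any base of the copy.

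The main fit used group means only and ignored any pairing by replicate number. Replicate numbers were judged to pair samples where the differences between replicates correlated above 0.1 in every one of at least 3 pairs of groups. This held in the oct set (0.179 to 0.355) and the January set (0.151 to 0.211). The correlation was 0.431 in the single pair of the nov set and 0.0615 to 0.137 in the n4/n5 set. The replicate block below was fitted in all 4 sets, not only where pairing was judged to hold. The alternatives were TPM as deposited, quantile normalisation, the replicate block, a filter at 5 TPM or none, 0.1 as pseudocount, all 8 mock libraries as control, each protein's own libraries alone, and leaving out each library.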

Additional observations from a re-analysis of the deposited data

Results flagged for a closer look

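The log2 change of RN7SKP193 after hnRNPC depletion differed between the siRNAs, with a siRNA_2 minus siRNA_3 difference of -0.732 (adjusted p = 0.0130, limma). Its change was 0.58 with siRNA_2 and 1.31 with siRNA_3. RN7SKP90 differed likewise, by -0.667 (adjusted p = 0.0307), with changes of 0.46 and 1.13. RN7SKP193 met the level threshold in 3 hnRNPC siRNA libraries alone, so the libraries that admitted it are those compared here. Both copies are rare, and their values in every library of the comparison are given above. HNRNPC itself fell by 1.69 with siRNA_2 and by 1.84 with siRNA_3, and that difference did not pass the test (adjusted p = 0.492). Neither difference passed with a pseudocount of 0.1, where 1 other entry did, or with TPM as deposited.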

How the results depend on the processing

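Of the 13 copies that rose after hnRNPC depletion, 7 were called with a filter at 5 TPM, under which 25 of the 86 were tested, 8 with the libraries of that comparison alone and 13 again, among 23, with all 8 mock libraries as control; leaving out single libraries gave 9 to 13. The replicate block called 16 as risen, the 13 included, and 3 as fallen; of the calls of named entries it changed that of RN7SL192P after hnRNPC depletion, given above. The 3 that fell were 1 with no filter and 1 to 2 without single libraries. The risen copy after hnRNPM depletion was not called (0) with TPM as deposited, no filter, a filter at 5 TPM or the libraries of that comparison alone, and 0 to 1 were called without single libraries. The 2 that fell after SRSF1 depletion were 1 with TPM as deposited, no filter or its own libraries alone, 0 at 5 TPM and 1 to 2 without single libraries; 1 rose with all 8 mock libraries as control and 0 to 1 without single libraries. With all 8 mock libraries as control 5 rose and 4 fell after RBFOX2 depletion, and RN7SL192P was then at 0.49 in place of -0.03. TPM as deposited moved the median change of all genes by 0.21 after RBFOX2 and -0.14 after hnRNPC depletion; calls after RBFOX2 were then 75% upward in place of 21.1%, and after SRSF1 35.3% in place of 46.5%, and after hnRNPC 22.3% in place of 32.8%. RN7SKP71, RN7SL5P, RN7SKP203, RN7SL712P and RN7SKP80 kept their calls in each of these settings after hnRNPC depletion, as did RN7SL507P where it was tested (not at 5 TPM).

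Some results were added to these trials after the values were seen. The 2 entries that differed between the hnRNPC siRNAs were 0 with TPM as deposited or its own libraries alone, 1 other entry with a pseudocount of 0.1 or a filter at 5 TPM, 1 of the 2 with no filter, 4 with the replicate block and 0 to 5 without single libraries (5 without siRNA_2 replicate 1). Those whose hnRNPC change differed from hnRNPM were 11 with no filter and 10 at 5 TPM in place of 17, and 12 to 16 without single libraries; from SRSF1, 7 at 5 TPM in place of 12, and 9 to 13; from RBFOX2, 4 to 11. The causes were not tested. Depth is unknown, groups hold 2 libraries, and the 95% intervals of the main genes after hnRNPC depletion span more than 2 log2 units. The width of these intervals depends in part on the trend of spread with level over all genes.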
